A study of Drosophila melanogaster with 6 samples.

Results

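The 10 genes described here encode the fly's excision and single-strand break repair machinery together with 1 enzyme that reverses alkylation damage, and they were taken by name: XRCC1, Parp, Fen1, Ercc1, mei-9, hay, Xpd, Xpac, mus201 and agt. They are 10 of 17524 genes listed in 6 transcript tables made from wing imaginal discs of Drosophila melanogaster, larval sacs of epithelium from which the adult wing and notum develop. All 6 libraries carried the MS1096-Gal4 driver, which is active mainly in the wing pouch. The 3 control libraries carried the driver alone, and the 3 dNKAP RNAi libraries carried it with an RNAi construct against dNKAP (CG6066), the fly homolog of the nuclear protein NKAP. The age of the larvae is not given in the sources used here, nor is it said that replicates came from separate animals, so the p-values reflect variation between these particular libraries, which may be technical. Whole discs were used, so cells with little driver activity are included, and in such bulk RNA a change in the number of cells of a type and a change in RNA per cell cannot be told apart.

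Excision repair removes damaged bases by cutting the damaged strand and filling the gap. In nucleotide excision repair the TFIIH complex opens the helix around a bulky lesion with 2 helicases, Xpac checks the opened DNA, and nucleases cut on either side, Ercc1 with mei-9 on the 5′ side and mus201 on the 3′ side. Base excision and single-strand break repair rely on Parp to detect the nick, on XRCC1 to gather the repair enzymes and on Fen1 to trim displaced flaps. The enzyme made from agt works without excision, taking an alkyl group from guanine onto itself.

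In dNKAP RNAi discs XRCC1, Ercc1 and hay rose. agt was listed at 0 in every control, which does not show absence, and at a middling level in dNKAP RNAi. XRCC1, Ercc1 and hay went up by 1.73-, 1.56- and 1.70-fold in mean FPKM (fragments scaled to transcript length and to the size of the library). Parp, Fen1, Xpd and Xpac did not pass the test, mei-9 was above 0 in 1 library, and mus201 was listed at 0 in all 6. Of the 10 genes, 8 reached a mean of 1 FPKM and entered the test, agt through the dNKAP RNAi libraries alone, so that it could not have entered without a difference and is left out of the counts that follow. Of the 7 members above 0 in every library, 3 were called higher and 0 lower. Among all 6506 tested genes 3.21% were called higher and 0.507% lower, and among the 5511 of them above 0 in every library 3.07% and 0.454%. These calls are from limma on log2(FPKM + 0.5), with Benjamini-Hochberg adjustment over all tested genes and a threshold of 0.05, and every log2 change below is on that scale, dNKAP RNAi minus control. In 3 of the 7 members every dNKAP RNAi library exceeded every control, and in 2 every one was lower, against 18.4% and 12.4% of those 5511 genes. The median log2 change was 0.033 over the 7 members and 0.028 over the 5511 genes. Limiting the counts to genes without a listed 0 was chosen after the values had been seen. The members, and the list of other repair genes below, were chosen with earlier results of these data known. Their counts beside these shares are therefore no test of the set.

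**Figure D1:**
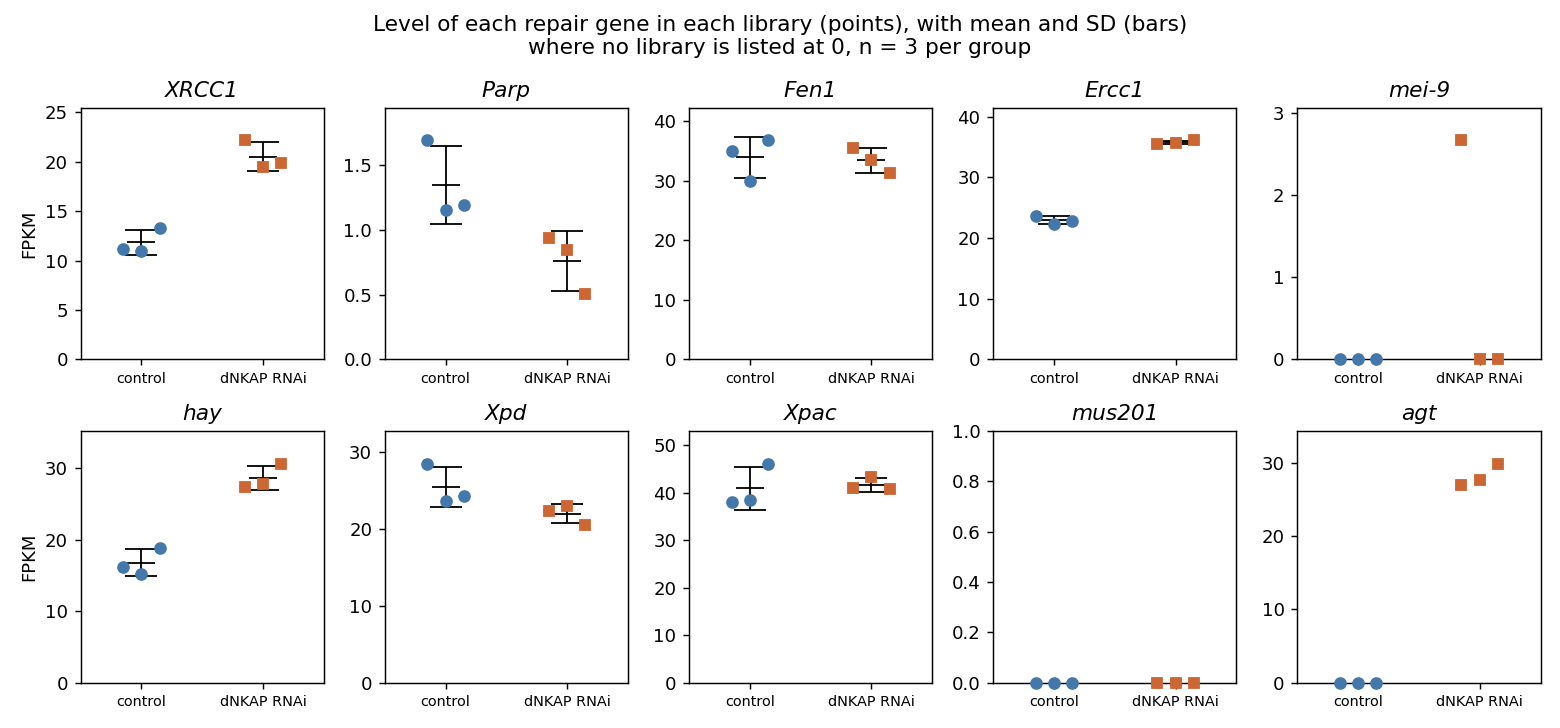
Level in FPKM of each of the 10 repair genes in each library, 3 controls (circles) and 3 dNKAP RNAi (squares), with the mean and SD as bars where no library is listed at 0. XRCC1, Ercc1, hay and agt are higher in every dNKAP RNAi library than in any control, Xpd and Parp are lower in every one, and Fen1 and Xpac overlap.

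The target transcript CG6066 (FBgn0039488) fell from 24.4 ± 2.01 to 12.9 ± 1.33 FPKM (SD, n = 3 each; adjusted p = 0.0146, limma). Read depth times transcript length summed to between 4.14 and 6.44 gigabases per library. The wing markers vg and nub were at 46.5 FPKM or more in every library, while Bx was listed at 0 in 3 libraries and pdm2 in 2. Of 8 wing disc markers, none was called changed and 0 had an unadjusted p under 0.05. Their summed level did not overlap between groups, at 433 to 445 FPKM in controls and 480 to 509 FPKM in dNKAP RNAi. Of the 8, 7 had a higher mean in dNKAP RNAi. Only pdm2, listed at 0 in 2 controls, was higher in every dNKAP RNAi library than in any control. Fat body markers separated the groups as a sum, with 1.94 to 73.8 FPKM in controls and 173 to 590 FPKM in dNKAP RNAi. Among single fat body markers only Fbp1 did so, its lowest dNKAP RNAi library being at 62.5 FPKM and its highest control at 25.1 FPKM. For Lsp1alpha and Lsp1gamma, control replicate 1 exceeded dNKAP RNAi replicates 2 and 3. Fbp1 made up most of the sum in these dNKAP RNAi replicates, at 137 FPKM in replicate 2 and 561 FPKM in replicate 3. Of the 6 fat body markers, 3 (Fbp2, Lsp2 and Lsp1beta) were at 0 in all libraries, and of the 3 tested, 0 passed limma's adjusted threshold and 1 had an unadjusted p under 0.05. The part of fat body RNA in the repair results was not tested. Gut markers summed to 0.611 to 0.875 FPKM in controls and 0.392 to 40.3 FPKM in dNKAP RNAi. The highest sum was in dNKAP RNAi replicate 2 alone, where Jon65Aiii was at 34.8 FPKM. Salivary gland, haemocyte, tracheal and muscle precursor sums overlapped between groups except for trachea (536 to 788 FPKM in controls, 457 to 534 FPKM in dNKAP RNAi). In dNKAP RNAi replicate 2, transcripts of classes left out of gene values held 3.70% of the FPKM, against 0.267% to 0.630% in the other libraries.

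XRCC1 (FBgn0026751; chromosome X, 5329876 to 5332435, plus strand, dm6 coordinates) encodes the scaffold of single-strand break repair. Its level was 11.2, 11.0 and 13.3 FPKM in the controls and 22.2, 19.5 and 19.9 FPKM in dNKAP RNAi. The groups did not overlap, and the lowest dNKAP RNAi library stood well above the highest control. Its mean went from 11.8 ± 1.29 to 20.5 ± 1.43 FPKM (SD, n = 3 each), a log2 change of 0.77 (SE 0.11, 95% interval 0.51 to 1.04, limma adjusted p = 0.0224). The deposited confidence bounds of the reference transcript did not meet either, with 14.5 FPKM as the highest upper bound in a control and 16.4 FPKM as the lowest lower bound in dNKAP RNAi. In dNKAP RNAi replicate 1, 4.11 FPKM came from a newly assembled isoform of 2084 bases that shares a junction with the reference transcript of 2319 bases. With exact matches alone the log2 change was 0.68 and the limma adjusted p 0.04998. The call ended when control replicate 1 or 2 was left out (limma adjusted p = 0.0785 and 0.0740) or any 1 dNKAP RNAi library (0.0700 to 0.0784), but not when control replicate 3 was (0.0251). No exon of another annotated gene overlaps XRCC1.

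Parp (FBgn0010247, named Parp1 in the annotation; chromosome 3R, 3461351 to 3587054, minus strand) encodes the poly(ADP-ribose) polymerase that binds strand breaks. It measured 1.69, 1.16 and 1.19 FPKM in the controls and 0.938, 0.846 and 0.501 FPKM in dNKAP RNAi. Every dNKAP RNAi library was below every control, at a level near the filter, in the lowest 5.95% of tested genes by control mean. That separation rested on a new isoform at 1.16 FPKM in control replicate 1, where the reference transcript alone, at 0.528 FPKM, was below dNKAP RNAi replicates 1 and 2. The log2 change was -0.55 (SE 0.33, 95% interval -1.38 to 0.27, limma adjusted p = 0.423). Mean read depth behind these values was 2.41 to 8.13 per base. The deposited bounds of the strongest transcript in each library spanned up to 36.5% of the value on either side. For the reference transcript in control replicate 1 they were wider relative to its value, at 0.284 to 0.773 FPKM. With every class code but antisense overlap counted, the log2 change turned to 0.77 (limma adjusted p = 0.638).

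Fen1 (FBgn0025832; chromosome 2R, 16854025 to 16855464, minus strand) encodes the flap endonuclease that also trims the lagging strand in replication. Its level was 35.0, 30.0 and 36.8 FPKM in the controls and 35.6, 33.6 and 31.4 FPKM in dNKAP RNAi. The ranges overlapped, with means of 33.95 ± 3.51 and 33.5 ± 2.10 FPKM (SD, n = 3 each). The log2 change was -0.016 with a 95% interval of -0.27 to 0.23 (limma adjusted p = 0.954), so that a rise of the size seen for XRCC1 lies outside the interval. IntS8 on the other strand shares 80 exon bases with Fen1.

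Among the nucleotide excision genes, the nuclease subunit gene Ercc1 rose with little spread within either group. Ercc1 (FBgn0028434; chromosome 2R, 14852941 to 14853948, plus strand) was at 23.7, 22.3 and 22.9 FPKM in the controls, against 35.6, 35.7 and 36.1 FPKM in dNKAP RNAi. All 3 dNKAP RNAi libraries lay above all controls. Its mean went from 22.95 ± 0.669 to 35.8 ± 0.278 FPKM (SD, n = 3 each), a log2 change of 0.63 (SE 0.05, 95% interval 0.50 to 0.76, limma adjusted p = 0.00430). Leaving out any 1 library kept the limma adjusted p between 0.0174 and 0.0272. The highest upper bound of a control was 26.3 FPKM and the lowest lower bound in dNKAP RNAi 32.1 FPKM. Ciao1 on the other strand shares 86 of the 950 exon bases of Ercc1. Ciao1, a gene of cytosolic iron-sulphur assembly, measured 62.6 ± 5.07 and 64.4 ± 4.56 FPKM (SD, n = 3 each; limma adjusted p = 0.825). How reads were assigned by strand is not given in the sources used here, so the values of overlapping genes are uncertain.

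The catalytic partner of Ercc1 could not be compared. mei-9 (FBgn0002707; chromosome X, 4314230 to 4318801, minus strand), the fly XPF homolog, was listed at 0 in all 3 controls and in dNKAP RNAi replicates 2 and 3, and at 2.67 FPKM in dNKAP RNAi replicate 1. Its mean was under 1 FPKM and it was not tested. mus201 (FBgn0002887; chromosome 2L, 8438169 to 8442342, plus strand), the fly XPG homolog, was listed at 0 in every library. A listed 0 does not show that a transcript was absent, since Act5C, an actin gene that every cell uses, was at 0 in all 6 libraries and the ribosomal protein gene RpS2 in 4 of 6. The deposited upper bounds beside these zeros were at most 0.0295 FPKM for mei-9 and 0.0286 FPKM for mus201.

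Of the TFIIH helicase genes, hay rose and Xpd did not pass the test. hay (FBgn0001179; chromosome 3L, 10631079 to 10633969, plus strand), the fly XPB, was at 16.2, 15.3 and 18.9 FPKM in the controls, against 27.4, 27.8 and 30.6 FPKM in dNKAP RNAi. No control reached the lowest dNKAP RNAi library. Its mean went from 16.8 ± 1.89 to 28.6 ± 1.73 FPKM (SD, n = 3 each), a log2 change of 0.76 (SE 0.10, 95% interval 0.50 to 1.01, limma adjusted p = 0.0219). All of this level was assigned to the reference transcript of 2511 bases, while the one of 2604 bases was listed at 0 in all libraries. As for XRCC1, the call ended when control replicate 1 or 2 was left out (limma adjusted p = 0.0788 and 0.0629) or any 1 dNKAP RNAi library (0.0720 to 0.0796), and held when control replicate 3 was (0.0225). CG34001 on the same strand shares 117 exon bases with hay and was listed at 0 in every library.

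Xpd (FBgn0261850; chromosome 2R, 21171001 to 21174504, plus strand), the other helicase, was at 28.5, 23.7 and 24.2 FPKM in the controls, against 22.4, 22.97 and 20.6 FPKM in dNKAP RNAi. Every dNKAP RNAi library was below every control, by less than 1 FPKM at the nearest. The log2 change was -0.21 (SE 0.10, 95% interval -0.45 to 0.04, limma adjusted p = 0.319). The ratio of hay to Xpd, both in FPKM, was 0.569, 0.644 and 0.780 in the controls and 1.22, 1.21 and 1.49 in dNKAP RNAi. The ratio was higher in 3 of 3 dNKAP RNAi libraries (log2 difference 0.98). A two-sided exact permutation test gave p = 0.1, the smallest value that 3 against 3 libraries allow. Since hay was higher and Xpd lower in every dNKAP RNAi library than in any control, this outcome was fixed beforehand. Of the 7 other measured TFIIH subunit genes, Xpd, Tfb1, mrn, Tfb4, Cdk7, CycH and Mat1, 0 were higher and 0 lower by limma's adjusted threshold, with log2 changes from -0.21 to 0.19. The lowest adjusted p among them was 0.143, for mrn, which was the 1 gene of these with an unadjusted p under 0.05. hay relative to their geometric mean was 0.443, 0.439 and 0.516 in the controls and 0.725, 0.746 and 0.860 in dNKAP RNAi, with the same exact permutation p of 0.1. Both ratios were chosen after the values had been seen, and the last one reuses the separation of hay, so neither test adds support. Of further TFIIH subunit genes, Ssl1 was listed at 0 in every library and Tfb5 was not listed, so neither could be compared.

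**Figure D2:**
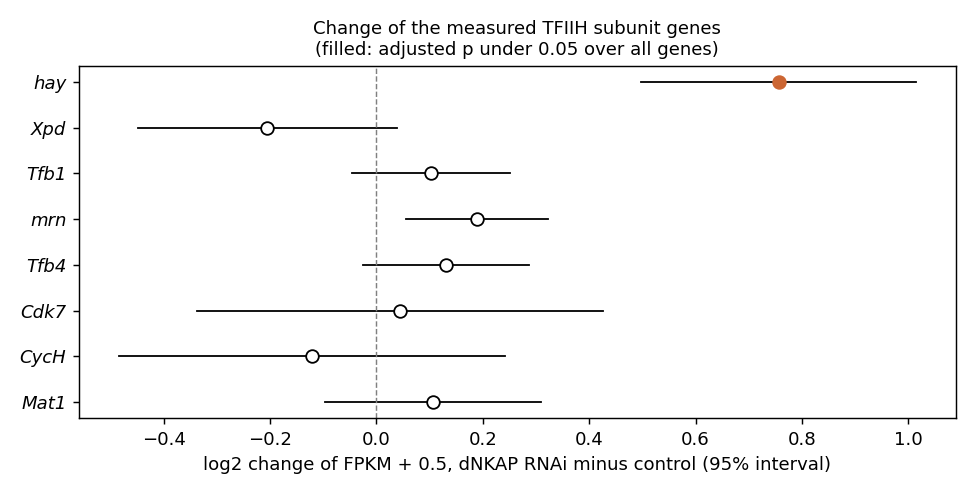
Log2 change of FPKM + 0.5, dNKAP RNAi minus control, with its 95% interval (lines) for the 8 measured TFIIH subunit genes; the filled point passed an adjusted p of 0.05. hay is at 0.76, and the other 7 are between -0.21 and 0.19. Ssl1, listed at 0 in every library, and Tfb5, not listed, are not shown.

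Xpac (FBgn0004832; chromosome X, 4102955 to 4104197, minus strand), the fly XPA, was the most abundant of the members in both groups. Its level was 38.1, 38.5 and 46.1 FPKM in the controls and 41.0, 43.4 and 40.8 FPKM in dNKAP RNAi. The dNKAP RNAi values lay inside the control range. The log2 change was 0.033 (SE 0.09, 95% interval -0.20 to 0.26, limma adjusted p = 0.871). CG15375 on the other strand shares 41 exon bases with it and was listed at 0 in every library.

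agt (FBgn0024912; chromosome 3R, 6658806 to 6660100, minus strand) had the largest difference between groups among the members. It was listed at 0 FPKM in all 3 controls, while the dNKAP RNAi libraries had 26.9, 27.7 and 29.8 FPKM. The dNKAP RNAi libraries agreed closely with each other, at a level near that of hay in the same libraries. No fold or p-value is given against listed zeros, which have no spread. The deposited upper bounds for agt transcripts at 0 were at most 0.201 FPKM in the controls. In dNKAP RNAi replicate 1 such a bound was 0.213 FPKM, beside an assembled agt transcript at 26.9 FPKM. A bound therefore limits a single entry and not the level of the gene. Mean read depth in the dNKAP RNAi libraries was 136 to 166 per base. A listed 0 does not show that agt was absent from the controls, since Act5C was also at 0 in all 6 libraries. Whether the agt zeros are failed estimates was not tested. In each dNKAP RNAi library the value belonged to an assembled transcript that matched the 1295-base reference transcript, while the reference entries themselves were listed at 0. In all, 16 genes were at 0 in every control and at 10 FPKM or more in every dNKAP RNAi library, agt among them, and 3 genes showed the opposite. Of 5055 genes that reached 10 FPKM in a library, 627 were at 0 in another library.

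agt consists of 1 exon, and twr (FBgn0262801), which encodes a signal peptidase subunit, runs toward it on the other strand. The 2 genes share 379 of the 1295 exon bases of agt, or 29.3%, where the last 2 exons of twr lie inside agt. twr measured 296, 256 and 238 FPKM in the controls and 170, 185 and 193 FPKM in dNKAP RNAi. It was lower in every dNKAP RNAi library than in any control, and its log2 change of -0.52 (SE 0.10) did not pass, at an adjusted p of 0.0615 from limma. Since a transcript of 1 exon has no splice junction to show its strand and strand use is not stated, reads of the shared stretch could not be assigned to one gene from these tables. The part of twr in the agt values was not tested.

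**Figure D3:**
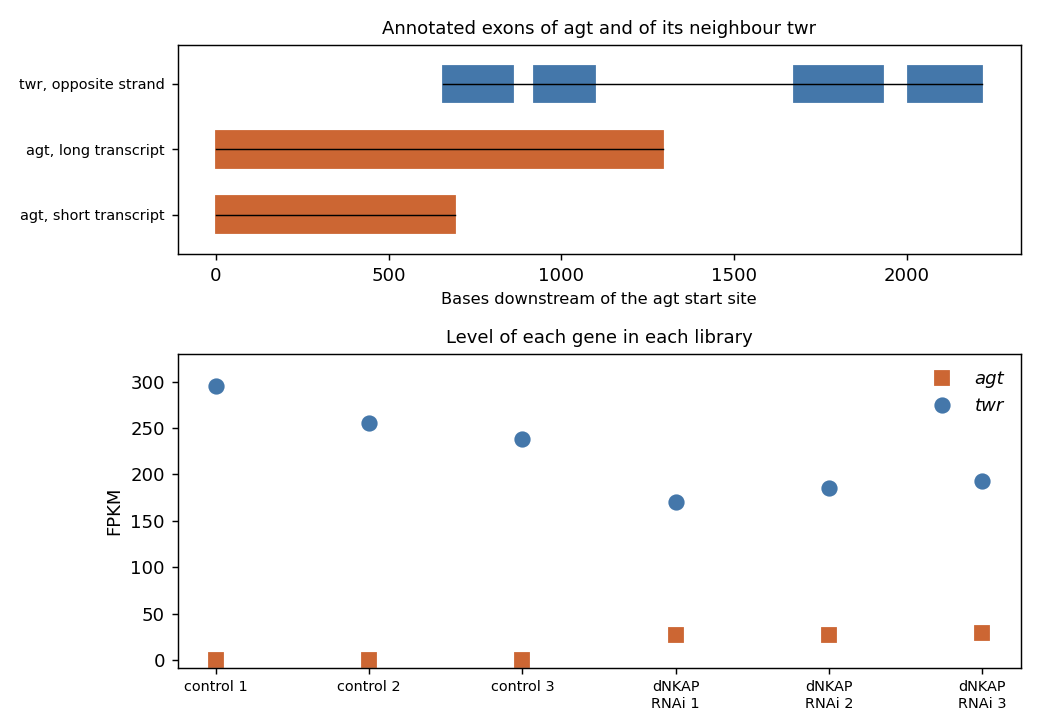
Upper panel, annotated exons (boxes) of agt and of its neighbour twr on the opposite strand, by distance in bases from the agt start site. Lower panel, FPKM of both genes in each library, with agt at 0 in the controls and at 26.9 to 29.8 in dNKAP RNAi, and twr at 238 to 296 in the controls and at 170 to 193 in dNKAP RNAi.

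Ercc1 and hay changed place in the order of levels, Ercc1 passing Xpd and Fen1 and hay passing Xpd, while XRCC1 kept its place below Xpd and above Parp. FPKM is scaled to transcript length, which allows a rough comparison of levels between genes. Exons shared with other genes, as at agt and Ercc1, leave the order uncertain. In controls the order of means was Xpac (40.9 FPKM), Fen1, Xpd (25.5 FPKM), Ercc1, hay, XRCC1 and Parp (1.35 FPKM). Xpd and Ercc1 stood close in it, the lowest control of Xpd and the highest of Ercc1 both being at 23.7 FPKM. In dNKAP RNAi the order was Xpac (41.7 FPKM), Ercc1, Fen1, hay, agt (26.9 to 29.8 FPKM), Xpd, XRCC1 and Parp (0.762 FPKM). There the values of hay and agt overlapped, as did those of Xpd and XRCC1, and Ercc1 exceeded Fen1 by about the spread of Fen1. By control mean, Xpac stood above 70.0% of tested genes, Ercc1 above 53.2%, hay above 44.3% and XRCC1 above 35.5%.

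**Figure D4:**
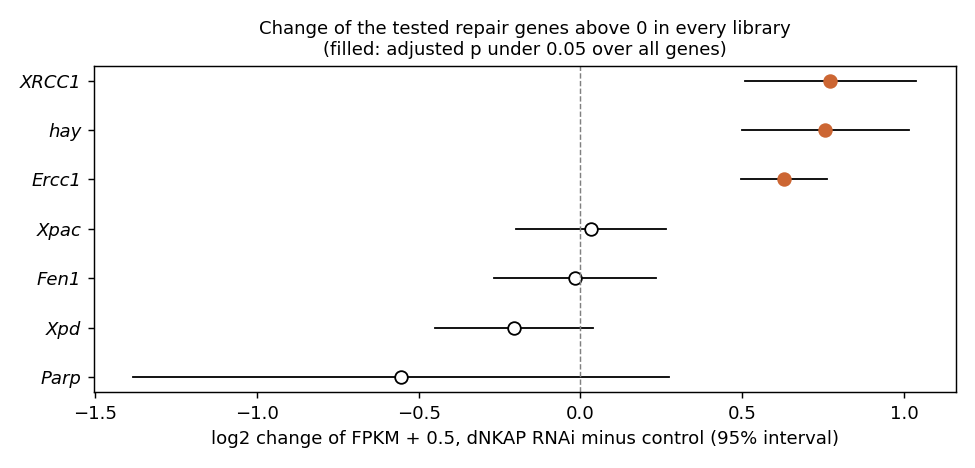
Log2 change of FPKM + 0.5, dNKAP RNAi minus control, with its 95% interval (lines) for the 7 tested members above 0 in every library; filled points passed an adjusted p of 0.05. XRCC1, hay and Ercc1 are at 0.77, 0.76 and 0.63 with intervals above 0, and the intervals of Xpac, Fen1, Xpd and Parp include 0.

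None of the other genes of these pathways passed the test over all genes. The list held 31 further genes of base excision, nucleotide excision, mismatch repair and direct reversal, of which 29 were listed in the tables and 24 were tested. By limma 0 were higher, 0 lower, and 4 had an unadjusted p under 0.05 against 19% of all tested genes. Of the 21 that were above 0 in every library, 15 had a positive log2 change, with a median of 0.13, and 5 had all dNKAP RNAi libraries above the controls, against 18.4% of such genes overall. The most abundant, the AP endonuclease gene Rrp1, measured 144 ± 5.78 and 127 ± 11.2 FPKM (SD, n = 3 each; limma adjusted p = 0.302), and the TFIIH subunit gene Tfb1 103 ± 4.49 and 110 ± 4.76 FPKM (SD, n = 3 each; limma adjusted p = 0.406).

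Xpc and DNAlig3 stood just outside the threshold, and both were named after their values had been seen. Xpc, the lesion sensor of nucleotide excision repair, was at 43.7, 40.5 and 41.4 FPKM in the controls, against 102, 64.7 and 98.4 FPKM in dNKAP RNAi. The groups were apart, and the log2 change of 1.04 had an SE of 0.19 and an adjusted p of 0.0545 from limma. Its transcript of 4275 bases alone gave the same control values and 68.7, 64.7 and 65.8 FPKM in dNKAP RNAi. A transcript of 1390 bases accounted for the rest, at 33.6 and 32.5 FPKM in dNKAP RNAi replicates 1 and 3 and at 0 in the other libraries. DNAlig3, a ligase that seals nicks, measured 4.20 ± 0.311 and 7.70 ± 1.14 FPKM (SD, n = 3 each), and its log2 change of 0.80 had an SE of 0.14 and an adjusted p of 0.0539 from limma. Leaving out genes listed at 0 in any library, a setting chosen after the zeros had been seen, gave limma adjusted p of 0.0317 for Xpc and 0.0272 for DNAlig3. Over 17 alternatives these ranged from 0.00637 to 0.159 for Xpc and from 0.0272 to 0.408 for DNAlig3, and each passed in 2.

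Within direct reversal, the photolyase gene phr shared with agt the zeros in controls. phr was listed at 0 in control replicates 1 and 2 and at 28.8 FPKM in control replicate 3. The dNKAP RNAi libraries had 86.5, 38.1 and 56.7 FPKM (adjusted p = 0.221, limma). All 3 dNKAP RNAi libraries were above the highest control, and the spread set by the zeros was wide. The phr transcript of 1737 bases was at 0 in every control and at 47.9, 38.1 and 56.7 FPKM in dNKAP RNAi. The one of 1915 bases was above 0 only in control replicate 3 (28.8 FPKM) and dNKAP RNAi replicate 1 (38.7 FPKM). CG6171, listed here with base excision, was at 0 in control replicate 1 and at 25.3 and 28.7 FPKM in the other controls, against 61.5, 64.9 and 67.3 FPKM in dNKAP RNAi (log2 change 3.17, adjusted p = 0.367, limma). Without control replicate 1 its log2 change was 1.24 and its limma adjusted p 0.00768. That change rests in part on listed zeros. A transcript of 1001 bases was at 0 in every control and at 26.3, 31.9 and 29.0 FPKM in dNKAP RNAi. The CG6171 transcript of 947 bases was at 25.3 and 28.7 FPKM in control replicates 2 and 3. In dNKAP RNAi that transcript was at 35.2, 33.1 and 38.3 FPKM. Over 16 alternatives the limma adjusted p ranged from 0.00768 to 0.518 for CG6171, which passed in 1. phr also passed in 1 of 16, the fit without control replicate 3, and its adjusted p was at most 0.422. That fit sets phr against listed zeros, which have no spread, so its pass carries no weight. The other photolyase gene, phr6-4, measured 8.47 ± 0.764 and 7.97 ± 0.431 FPKM (SD, n = 3 each; limma adjusted p = 0.688). These 3 genes were also named after their values had been seen.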

How the data were processed

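Per the labels' protocols, disc RNA was extracted with Trizol and read on a NextSeq instrument. The authors deposited 1 table of assembled transcripts per library, and per the file headers it pairs each transcript with its closest reference transcript and gives FPKM with lower and upper bounds, mean read depth and length. FPKM values were used as deposited by the authors. Judged from its values, the deposited read depth is an unscaled coverage signal. The submitters' processing notes name the build dm6 and the tools FastQC, HTSeq and DESeq, while their versions, the aligner and strand use are not given in the sources read for this work. No file holds read counts.

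A gene's value was the sum of FPKM over class codes for exact match, contained, shared junction and exonic overlap. Names and coordinates came from the Ensembl annotation of the same assembly and a table of FlyBase names. Of 17525 listed identifiers, 17429 had a name, and 149 older ones were replaced through their transcripts. Libraries were grouped and numbered by their titles. Groups were compared with limma 3.58.1 (R 4.3.3) on log2(FPKM + 0.5) where the mean reached 1 FPKM, with a mean-variance trend, two-sided, with Benjamini-Hochberg adjustment over all tested genes and a threshold of 0.05. The fit was tested on simulated data with independent normal noise and without listed zeros, so that test does not cover genes with listed zeros. Transcript usage was to be tested in genes with 2 or more transcripts at a mean of 1 FPKM, and 0 members had them. Ratios of genes were compared with exact permutation tests (scipy 1.17.1). Tables and plots were made in Python 3.11.15 with pandas 2.3.3 and matplotlib 3.10.9.

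The members and lists were chosen with earlier results of these data known. All members are named whatever their values; of other repair genes the rule names those past the threshold and the 2 most abundant. Same-numbered libraries of the groups did not deviate together. Alternatives covered the pseudocount, the filter, scaling, the trend, class codes, a replicate block and leaving out each library.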

Additional observations from a re-analysis of the deposited data

Results flagged for a closer look

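Short pieces assembled inside the introns of Parp, which gene values leave out, reached 2.79 FPKM in control replicate 1 and, among the knockdown libraries, 7.82 and 4.21 FPKM in dNKAP RNAi replicates 2 and 3, with 0 in the other libraries. The highest dNKAP RNAi library exceeded the highest control, which marked this result. That library was replicate 2, where pieces at 3.75 and 4.07 FPKM made up the value. Classes left out of gene values held 3.70% of its FPKM over all genes, against 0.267% to 0.630% in the other libraries. The 4 pieces were 316 to 388 bases long, and the gene itself spans 125704 bases. The deposited bounds of the single pieces were wide, from 1.13 to 4.45 FPKM in control replicate 1 and from 2.11 to 6.32 FPKM in dNKAP RNAi replicate 3. The difference was not tested. Counting the pieces toward Parp turned its log2 change from -0.55 to 0.77 (limma adjusted p = 0.638).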

How the results depend on the processing

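Over 116 recalculations for the 7 members above 0 in every library, 96 kept the direction and the side of the threshold, 13 kept the direction but lost the call, and 7 changed sign, all of these for genes that were not called. Those 7 were Fen1 (-0.10 to 0.044 when 1 library was left out), Xpac (-0.015 to 0.12 when 1 library was left out, and -0.016 after quantile normalization) and Parp (0.77 with every class code but antisense overlap). Single values were 0.0084, 0.044 and 0.030 for Fen1 and -0.015 and -0.0066 for Xpac. Members called higher numbered 2 to 4 when 1 library was left out, with XRCC1 and hay the ones lost, and 3 among genes above 0 in every library. Ercc1 stayed past the threshold in 16 of 17 alternatives. The counts of 2 to 4 include agt, whose controls are all listed at 0 and which the last of these settings removes, so its calls say nothing about stability. Of the other repair genes, 2 were higher among genes above 0 in every library, 1 without a mean-variance trend and 0 to 1 when 1 library was left out. The gene called without control replicate 3 was phr, whose remaining controls are listed at 0.

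Over all genes 126 to 159 were higher and 28 to 34 lower when 1 library was left out. Lower calls numbered 58 after median-ratio scaling, 62 after quantile normalization, 60 without a filter and 59 among genes above 0 in every library. Higher genes made up 86.4% of calls, and 75.1% after quantile normalization, and the median of all genes shifted by less than 0.1 on the log2 scale under every scaling run. The cause of these shifts was not tested. With the replicate block 72 genes were higher and 5 lower, and 1 member, agt, was called higher. In that fit the adjusted p was 0.0740 for Ercc1, 0.0695 for hay and 0.134 for XRCC1. The numbers are not shown to pair the libraries: deviations of same-numbered libraries correlated at -0.037, 0.057 and -0.0050, and only number 2 correlated best with itself. Read depth was low for Parp, and listed zeros limit agt, mei-9 and mus201.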
